A study of Mus musculus with 4 samples.

Results

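Among proximal tubule nuclei of the mouse kidney cortex, 159 of 11039 held at least 2 UMIs (unique molecular identifiers, each standing for 1 captured RNA molecule) of 5 interferon-inducible genes, and these are called responding nuclei here. They were chosen by their own counts. A barcode entered with at least 200 genes and at most 10% mitochondrial UMIs, with at least 3 of the 4 proximal tubule genes Slc34a1, Lrp2, Cubn and Slc27a2 detected, with at least 2 UMIs of Iigp1, Irgm2, Igtp, Gbp6 and Irf1 summed, and with 0 UMIs of the macrophage genes C1qa, C1qb and C1qc. Proximal tubule nuclei of the same library with 0 UMIs of the 5 genes, 10419 in all, served as comparison nuclei. Of 39074 deposited barcodes 38481 passed the first filters.

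Kidney cortex nuclei of female mice had been profiled by droplet-based 3' sequencing, with 1 library for each strain and age. MRL/lpr mice at 6 and at 10 weeks were set beside C57BL/6 mice of both ages. The lpr allele disrupts Fas, which encodes a death receptor, and lupus-like nephritis arises in these mice. Because MRL animals with a working Fas gene were not compared, the Fas mutation, the rest of the strain background and the disease cannot be told apart. The labels do not say how many animals entered a library, and no treatment is named. No test between strains or ages of the number of nuclei was run, and intervals are 95% exact intervals that cover counting error only.

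Interferon gamma binds a receptor on the cell surface that signals through JAK kinases, and the transcription factor dimers formed then bind gamma-activated sequences (GAS) in promoters. Irf1, 1 of the 5 genes, encodes a transcription factor made early in this response that binds interferon-stimulated response elements (ISRE), as do the complexes with STAT2 formed after type I interferon. Iigp1, Irgm2 and Igtp encode immunity-related GTPases (IRG) and Gbp6 a guanylate-binding protein (GBP), 2 families of GTPases that act on the vacuoles of intracellular pathogens. The proximal tubule reabsorbs phosphate, amino acids, filtered protein and glucose, and it can present antigen when exposed to interferon gamma.

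The promoters of the gate genes and of genes that moved with them are shown because some of them carry these elements. Of the 5 gate genes and the 21 interferon list genes found higher below, 16 were searched, in 18 RefSeq promoters on build GRCm38.p6. The other 10, with Iigp1, Gbp6 and Cd74 among them, were not searched, and nothing is said here of their promoters. In the 250 bases before the start, GAS was searched as TTCNNNGAA and the ISRE core as GAAANNGAAA, on both strands and with overlaps kept. Among 32817 promoters of the same length 7.01% held the first, 2.97% the second and 0.329% both. Of the 16 genes 6 held GAS, 7 held the ISRE core, 4 held both, and 9 held at least 1, so 7 held neither. In each sequence the capitals mark the matches, with up to 15 bases on either side, written 5′ to 3′ on the strand of the gene.
Irgm2, chr11:58214887-58214937, plus strand: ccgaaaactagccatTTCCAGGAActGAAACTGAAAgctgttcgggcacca
Igtp, chr11:58199496-58199546, plus strand: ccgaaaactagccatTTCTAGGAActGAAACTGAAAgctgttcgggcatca
Irf1, chr11:53769909-53769947, plus strand: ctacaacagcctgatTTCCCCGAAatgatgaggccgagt
Gbp7, chr3:142530215-142530307, plus strand: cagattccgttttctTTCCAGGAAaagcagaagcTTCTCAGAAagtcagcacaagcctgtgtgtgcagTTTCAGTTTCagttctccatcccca
Irgm1, chr11:48871421-48871465, minus strand: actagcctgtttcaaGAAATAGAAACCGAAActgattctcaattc
Bst2, chr8:71537572-71537623, minus strand: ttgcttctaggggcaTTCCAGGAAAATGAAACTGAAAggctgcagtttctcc

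Irgm2 and Igtp, both on chromosome 11, had GAS and the ISRE core in the same spacing, at 75 and 64 bases before the start in Irgm2 and at 45 and 34 in Igtp. Irf1 had GAS alone, Irgm1 had 2 overlapping ISRE cores and no GAS, and Gbp7 and Bst2 had both, overlapping in Bst2. Neither motif was in this window of H2-D1, H2-K1, H2-Q4, H2-Aa, Stat3, Tap1 or Tapbp. A match is a description of letters and not a measured site.

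Responding nuclei were more frequent in MRL/lpr than in C57BL/6 libraries at both ages. MRL/lpr 6 weeks had 53 of 3148 proximal tubule nuclei, or 1.68% (1.26 to 2.20). C57BL/6 6 weeks had 3 of 2362, or 0.127% (0.0262 to 0.371). At 10 weeks, 90 of 3094 MRL/lpr nuclei responded, or 2.91% (2.35 to 3.56), against 13 of 2435 C57BL/6 nuclei, or 0.534% (0.285 to 0.911). MRL/lpr thus exceeded C57BL/6 by 13.3 times (4.30 to 66.3) in the younger pair and by 5.45 times (3.03 to 10.6) in the older. Between the ages the share differed by 1.73 times (1.22 to 2.47) in MRL/lpr and 4.20 times (lower bound 1.16) in C57BL/6, the latter resting on the 3 nuclei of C57BL/6 6 weeks.

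Responding nuclei were deeper than comparison nuclei. In the order MRL/lpr 6 weeks, C57BL/6 6 weeks, MRL/lpr 10 weeks and C57BL/6 10 weeks, which is kept below, their median was 1182, 1780, 981 and 1574 UMIs against 864, 942.5, 801 and 923. With each nucleus thinned to 500 UMIs, 0.746% of MRL/lpr and 0 of 2346 C57BL/6 nuclei responded at 6 weeks, the latter with an exact upper bound of 0.157%. At 10 weeks the thinned shares were 1.81% and 0.168%. The strain ratio was then at least 5.83 at 6 weeks, set against 3 nuclei, and 10.8 (3.98 to 41.0) at 10 weeks. This left out 65, 16, 110 and 52 shallower nuclei.

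**Figure D1:**
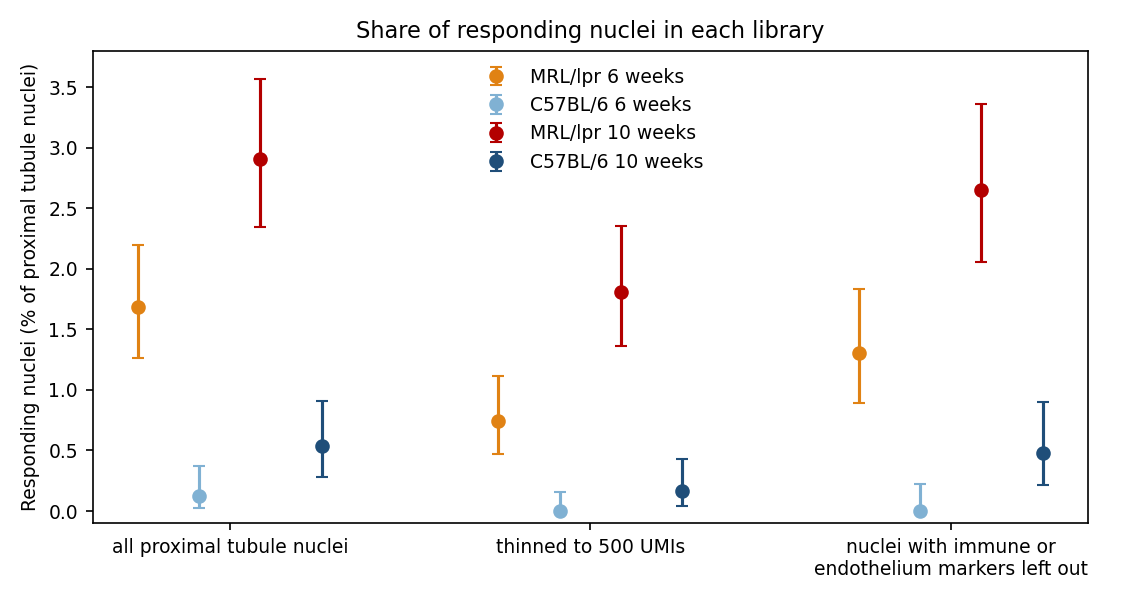
The percentage of proximal tubule nuclei with at least 2 UMIs of the 5 gate genes is plotted for each library, over all nuclei, after thinning to 500 UMIs, and without nuclei holding a UMI of an immune or endothelium marker; bars are 95% exact binomial intervals. Both MRL/lpr libraries lie above both C57BL/6 libraries in each setting, from 1.68% and 2.91% against 0.127% and 0.534% over all nuclei.

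How far a nucleus went above the threshold also differed. The highest nucleus held 26 UMIs of the 5 genes in MRL/lpr 6 weeks and 20 in MRL/lpr 10 weeks, against 2 in C57BL/6 6 weeks and 9 in C57BL/6 10 weeks. Of the 53 nuclei with 5 or more, 52 came from MRL/lpr libraries. Just at the threshold, with exactly 2 UMIs, were 67 nuclei, and just outside it, with 1 UMI, were 461. These counts are the values that chose the nuclei and are given as a description.

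**Figure D2:**
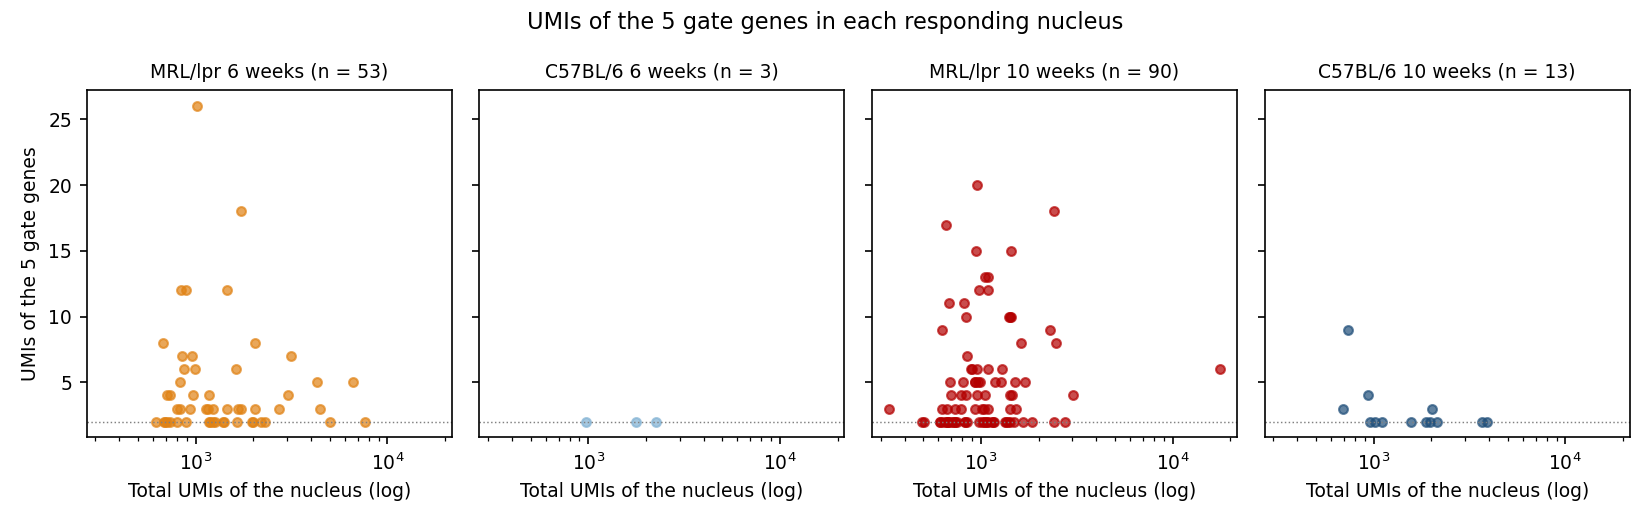
Each point is a responding nucleus, with its total UMIs on a log axis and its UMIs of the 5 gate genes on the other axis, in 1 panel per library; the dotted line is the threshold of 2. Nuclei reach 26 and 20 gate UMIs in the MRL/lpr libraries and 2 and 9 in the C57BL/6 libraries, at total UMIs that overlap.

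The share of each gate gene's UMIs that the responding nuclei held follows in part from the rule and is given as a description. In MRL/lpr at 10 weeks the 90 responding nuclei held 206 of the 228 UMIs of Iigp1 in proximal tubule nuclei without C1q RNA, or 90.4%, and at 6 weeks 53 nuclei held 88 of 99. For Irf1 the corresponding percentages were lower, at 53.3% and 43.0%. Of the 159 nuclei 112 held at least 2 different gate genes, and 4 held all 5, all of them from MRL/lpr.

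Each gate gene was then measured in nuclei chosen by the other 4 genes alone, which takes its own count out of the choice of nuclei. It does not take the gene out of the choice of the gate set, which was made with earlier results of these data known. A joint rise of the gate genes may thus be built into the set in part. The folds and tests of left-out genes are therefore no independent check. Iigp1 stood at 776 CPM (UMIs per 1000000 UMIs of the summed nuclei) in 38 nuclei of MRL/lpr 6 weeks against 7.20 in nuclei with 0 UMIs of the other 4, 108-fold (64.4 to 186) higher. In MRL/lpr 10 weeks it stood at 1511 against 22.5 CPM, 67.2-fold (48.8 to 93.6) higher. C57BL/6 10 weeks gave 1 UMI in 8 nuclei, 22.1-fold with an interval from 0.505 to 160, and C57BL/6 6 weeks gave 0 UMIs in 3 nuclei.

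Irgm2, the most widely detected of the 5, was 31.8-fold (20.6 to 48.9) higher in MRL/lpr 6 weeks, 16.0-fold (11.4 to 22.2) in MRL/lpr 10 weeks and 30.9-fold (13.3 to 63.6) in C57BL/6 10 weeks. Igtp was 34.3-fold, 28.2-fold and 31.0-fold higher in those 3 libraries, and Irf1 19.1-fold, 17.4-fold and 24.5-fold. For these 3 genes the intervals of C57BL/6 10 weeks overlapped those of MRL/lpr. Gbp6 was 79.7-fold and 146-fold higher in the 2 MRL/lpr libraries and had 0 UMIs in the nuclei of either C57BL/6 library. In edgeR's quasi-likelihood test with library as a block and Benjamini-Hochberg adjustment over all genes, each of the 5 rose when left out of the choice, with log2 differences from 4.00 for Irf1 to 6.03 for Gbp6 and adjusted p from 3.69e-37 to 2.42e-31. Gbp6 reached the filter of at least 50 UMIs used in this test only through the chosen nuclei. It had 11, 0, 27 and 0 UMIs there against 5, 1, 4 and 6, in the library order above, and its test is read with that limit.

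The remaining genes were compared by summing UMIs of responding and of comparison nuclei in each library. The 4 responding sums held 91191, 5021, 116206 and 22561 UMIs, so a count of 0 in C57BL/6 6 weeks allows up to 597 CPM and in C57BL/6 10 weeks up to 133 CPM. Of 11496 genes with at least 50 UMIs in all, 54 were higher (0.47%) and 1 was lower (0.0087%) at an adjusted p under 0.05 in edgeR, and 804 had an unadjusted p under 0.05; the 12 genes of the rule are not counted. Of the 54, 50 were higher in both MRL/lpr libraries and 17 in all 4. The median log2 difference of all genes was -0.19, and 0.01 when scaled by library size alone. The TMM scaling factor of the small C57BL/6 6 weeks sum was 2.31. With library size alone 111 genes were higher and 5 lower, all 54 among the 111. Without C57BL/6 6 weeks, whose 3 responding nuclei are described further on, 47 were higher and 5 lower; 13 were higher without MRL/lpr 10 weeks and 19 without MRL/lpr 6 weeks.

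Interferon list genes made up 21 of the 54. Of 135 members of 6 lists other than the gate genes, 70 had enough UMIs, 21 rose and 0 fell, with a median log2 difference of 1.22 against -0.19 for all genes tested. Of the 54 genes, 5 had under 50 UMIs in comparison nuclei and were tested only through their UMIs in responding nuclei, Gbp7 and Vcam1 of the lists among them, so these counts describe the genes that passed and not the whole lists. Without MRL/lpr 10 weeks 6 list members passed, among them Bst2, Gbp7, Irgm1, Nlrc5 and Parp14. Without MRL/lpr 6 weeks 10 passed, among them Ciita, Gbp7, Irgm1, Nlrc5, Parp14 and Tap1. These lists were drawn up with earlier results of these data known.

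The IRG and GBP GTPases other than the gate genes were rare RNAs, and only Gbp7 and Irgm1 of 19 had enough UMIs. Gbp7 passed the filter only through responding nuclei, with 47 UMIs in comparison nuclei, and its test is read with that limit. Gbp7 had 12, 0, 20 and 3 UMIs in responding nuclei and 12, 19, 5 and 11 in comparison nuclei, in the library order above. This is 132 against 3.96 CPM in MRL/lpr 6 weeks and 172 against 2.03 CPM in MRL/lpr 10 weeks, with 133 against 4.64 CPM in C57BL/6 10 weeks. Its log2 difference was 4.97 (SE 0.443, adjusted p = 8.27e-26 in edgeR). Irgm1, whose product regulates the other IRG proteins, stood at 110, 0, 155 and 177 CPM against 13.2, 13.4, 21.6 and 12.7 CPM, with a log2 difference of 2.82 (SE 0.409, edgeR adjusted p = 5.05e-09). For both genes the responding sums of 3 libraries were above all 4 comparison sums.

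Before any filter, 16 of the 19 had a UMI in responding nuclei and 13 were higher in both MRL/lpr libraries. Tgtp1, a T cell specific GTPase of the IRG family, had 11 and 12 UMIs in the responding nuclei of MRL/lpr 6 and 10 weeks against 1 and 4 in all comparison nuclei. F830016B08Rik had 8 and 25 against 1 and 7, and Gm4951 5 and 16 against 11 and 5. Gbp2 had 3 and 7 UMIs against 11 and 2. These 4 genes were too rare to test and were named after their values were seen. Tgtp1 and Tgtp2 are near-identical copies, between which counts may be split.

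Of the signalling genes of the interferon gamma pathway 4 of 12 tested members rose, among them both transactivators of antigen presentation, and 0 fell. Nlrc5, the transactivator of class I genes, had 11, 0, 10 and 2 UMIs against 23, 9, 32 and 10, a log2 difference of 3.24 (edgeR adjusted p = 5.25e-09). Ciita, the transactivator of class II genes, had 9, 0, 10 and 0 UMIs against 13, 7, 24 and 9, with 3.40 (edgeR adjusted p = 2.57e-08), and its 0 UMIs in C57BL/6 are within the limits that such small sums allow. Stat3 rose less, by 1.41 (edgeR adjusted p = 0.00277). Of the 8 tested members that did not pass, the receptor genes Ifngr1 and Ifngr2 had log2 differences of -0.17 and 0.07, and Jak1 and Jak2 -0.13 and 0.04.

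Of 19 tested class I and antigen processing genes 8 rose and 0 fell, with a median log2 difference of 1.42. The count was 0 of 17 without MRL/lpr 10 weeks (median 1.07), 1 of 18 without MRL/lpr 6 weeks (Tap1; median 1.13) and 2 of 18 with at least 3 gate UMIs (Psmb8 and Tap2; median 1.43), so H2-D1 and H2-K1 did not pass in these 3 settings. H2-D1, a classical class I heavy chain, stood at 461, 398, 353 and 488 CPM against 134, 111, 107 and 151 CPM, so in each library the responding sum was above the comparison sum. Its log2 difference was 1.51 (SE 0.271, edgeR adjusted p = 1.52e-05). H2-K1 stood at 329, 199, 310 and 355 CPM against 105, 85.5, 79.3 and 181 CPM, with a log2 difference of 1.42 (edgeR adjusted p = 0.000223).

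The peptide transporter genes Tap1 and Tap2 rose by 2.91 and 1.90 on the log2 scale, the loading chaperone gene Tapbp by 1.49, the immunoproteasome subunit gene Psmb8 by 2.88, and the class I genes H2-T23 and H2-Q4 by 1.80 and 1.66, with edgeR adjusted p from 0.000279 to 0.0251. B2m, which encodes the light chain of class I, stood at 1623, 797, 1119 and 842 CPM against 718, 280, 459 and 552 CPM. It was higher in all 4 libraries but missed the threshold in edgeR (log2 difference 0.83, adjusted p = 0.478), while library size alone gave an adjusted p of 3.5e-11. H2 genes differ in sequence between the strains, so only values within a library are compared.

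Of the 6 class II genes tested 3 rose. Cd74, the invariant chain, had 58, 0, 119 and 5 UMIs, at 636, 0, 1024 and 222 CPM against 151, 29.3, 178 and 127 CPM, with a log2 difference of 1.94 (SE 0.275, edgeR adjusted p = 2.12e-09). Of its 182 UMIs 40 came from 1 nucleus, and it did not pass without either MRL/lpr library (edgeR adjusted p = 0.991 without 6 weeks and 0.748 without 10 weeks). H2-Aa and H2-Ab1, the chains of the class II molecule I-A, rose by 1.93 and 1.54 on the log2 scale (edgeR adjusted p = 0.00144 and 0.00937), and both had 0 UMIs in responding nuclei of either C57BL/6 library. H2-Aa had 23 of its 26 UMIs in MRL/lpr 10 weeks, 10 of them in 1 nucleus, and its log2 difference was -0.0044 without that library.

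Of 21 tested members of the type I response list 19 were above 0, with a median log2 difference of 1.08, and 3 rose: Parp14, an ADP-ribosyltransferase, by 3.34 on the log2 scale (edgeR adjusted p = 1.91e-10), Bst2, which tethers budding virus, by 2.13 (edgeR adjusted p = 9.59e-06), and Rsad2, an antiviral enzyme, by 2.11 (edgeR adjusted p = 0.0109). Of the 16 UMIs of Rsad2 10 were in 1 nucleus. The whole list stood at 1217, 2987, 1429 and 532 CPM against 493, 638, 532 and 572 CPM, so it was not higher in C57BL/6 10 weeks. The value of 2987 CPM rests on the 3 nuclei of C57BL/6 6 weeks. The median log2 difference was 0.61 without MRL/lpr 10 weeks. It was 0.53 without nuclei holding other markers, with 9 of 13 tested members above 0. Stat2, Irf9 and Irf7 had log2 differences of 0.72, 0.54 and 1.22 and did not pass. Isg15 had 2 UMIs and Ifit1 2 UMIs in all 159 nuclei, too few to test. Among effectors Vcam1, an adhesion molecule, rose by 3.66 (edgeR adjusted p = 4.65e-09) from 18 UMIs in 6 nuclei. With 46 UMIs in comparison nuclei it passed the filter only through responding nuclei, and its test is read with that limit. Of 9 effectors tested in each case, 0 passed without marked doublets, without nuclei holding other markers, or without either MRL/lpr library. Cxcl10, a chemokine for T cells, was under the filter with 5, 0, 14 and 2 UMIs against 4, 1, 11 and 2, in 7 nuclei.

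Among the interferon genes looked at, Ifnk alone was counted in responding nuclei. It had 3 UMIs in each MRL/lpr library, in sums of 91191 and 116206 UMIs. Comparison nuclei of these libraries had 94 and 78, in the far larger sums of 3030931 and 2457799 UMIs. Ifng, Ifnb1, Ifna4, Ifne, Ifnl2 and Ifnl3 had 0 UMIs in responding nuclei, and other Ifna genes were not looked at. A single UMI of Ifng was found in comparison nuclei, in MRL/lpr 10 weeks.

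**Figure D3:**
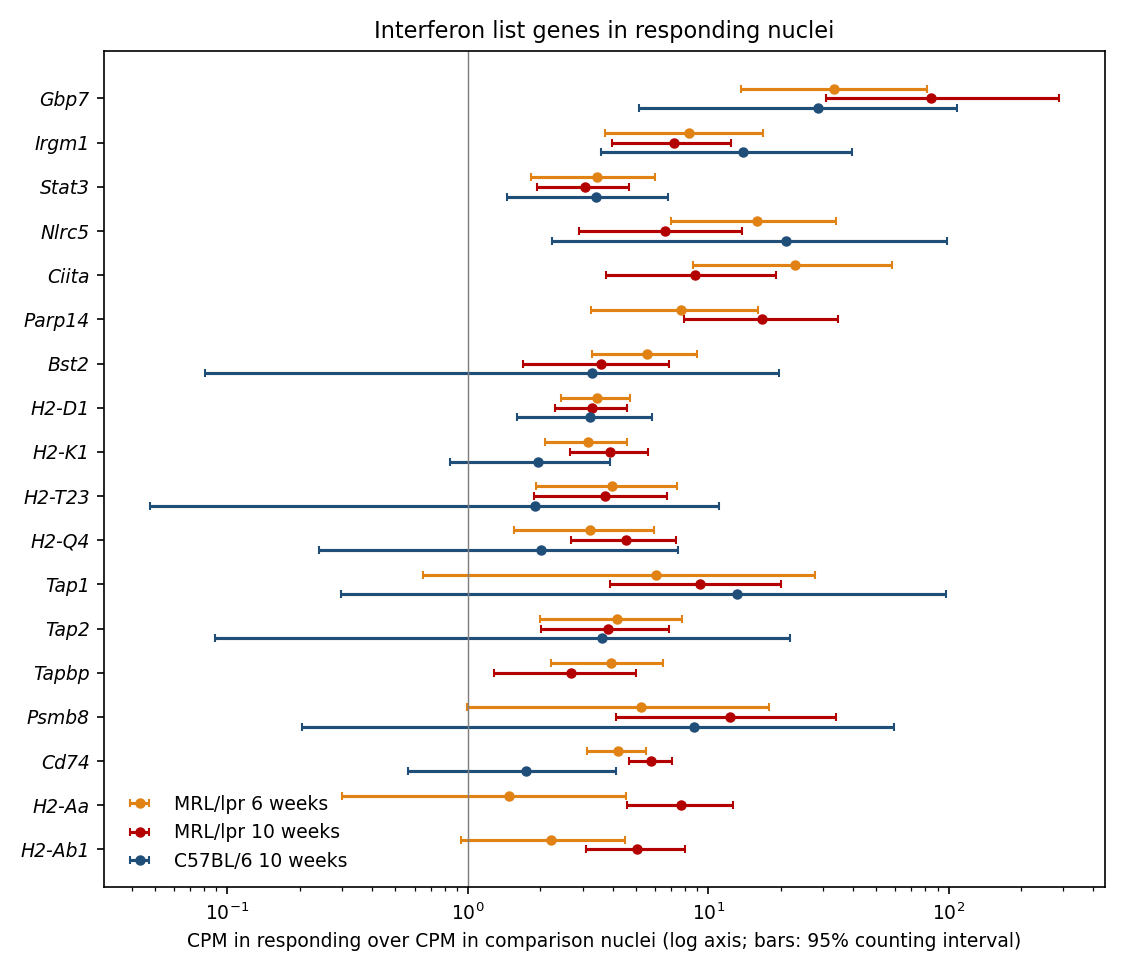
The ratio of CPM in responding to comparison nuclei is plotted on a log axis for 18 interferon list genes that rose, in 3 libraries with 95% counting intervals; C57BL/6 6 weeks, with 3 responding nuclei, is not drawn, and a missing point is a count of 0. Gbp7 and Irgm1 lie far to the right of 1 in all 3 libraries, while the intervals of several class I genes in C57BL/6 10 weeks include 1.

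Gene lists without the gate genes were followed over the number of gate UMIs in MRL/lpr nuclei of both ages. The 19 other IRG and GBP genes together stood at 42.3 CPM in 5792 nuclei with 0 gate UMIs, 96.7 with 1, 373 with 2, 808 with 3 to 4 and 1743 (1477 to 2043) in the 52 nuclei with 5 or more. Class I and processing genes stood at 1414, 2158, 3797, 3082 and 3416 CPM, with overlapping intervals at 2 and at 5 or more. Between these 2 steps they stood at 4615 and 3975 CPM in MRL/lpr 6 weeks and at 3009 and 3143 in MRL/lpr 10 weeks, in opposite order. Class II genes stood at 286, 591, 1008, 659 and 2041 CPM. At 5 or more 1 nucleus of 17758 UMIs held 74 of their 178 UMIs, and without it, a setting chosen after seeing the data, the level was 1487 CPM. The type I response list stood at 511, 705, 1132, 1212 and 1582 CPM, and at 1195 in the last step without 1 nucleus that held 34 of its 138 UMIs. In C57BL/6 the IRG and GBP genes stood at 37.8, 103 and 129 CPM at 0, 1 and 2 gate UMIs, with 12 nuclei at 2. Above that, C57BL/6 had nuclei at 10 weeks alone. There 3 nuclei with 3 to 4 gave 1653 CPM (607 to 3598) and 1 nucleus with 5 or more gave 8299 CPM (3046 to 18063), from 6 UMIs each. At 3 to 4, 1 nucleus of 939 UMIs held 5 of the 6 UMIs. These values thus describe single nuclei of 1 library and not the strain. The gate counts order these nuclei, so the courses are a description without a test.

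**Figure D4:**
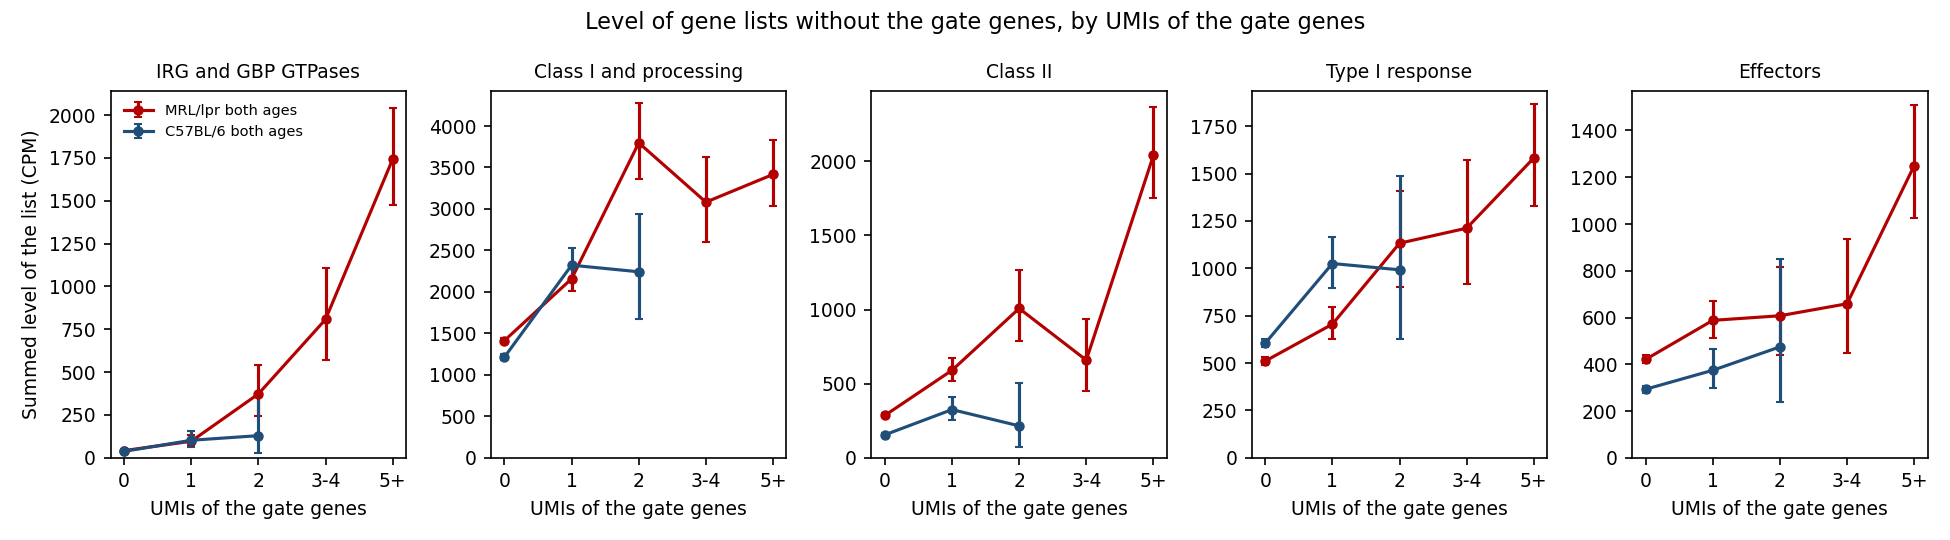
Summed CPM of 5 gene lists, without the gate genes, is plotted against the UMIs of the gate genes per nucleus for MRL/lpr and C57BL/6 (both ages together), with 95% Poisson intervals; groups of fewer than 12 nuclei are not drawn. IRG and GBP genes reach 1743 CPM at 5 or more in MRL/lpr, while the intervals of class I genes overlap at 2 and at 5 or more.

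Markers of other cell types moved with the responding nuclei. Endothelium markers, 14 genes, summed to 1283, 8763, 559 and 1197 CPM in responding nuclei against 424, 584, 232 and 424 CPM in comparison nuclei. At least 3 of these markers were found in 12 of 53, 3 of 3, 6 of 90 and 2 of 13 responding nuclei. All 3 nuclei of C57BL/6 6 weeks were thus among them, and all 3 were also marked as doublets by Scrublet. In MRL/lpr 10 weeks, summed markers of distal tubule (3416 against 1108 CPM), principal cells (654 against 188) and intercalated cells (447 against 178) were also higher in responding nuclei. A UMI of these 3 sets was found there in 25.6%, 17.8% and 7.78% of responding nuclei, against 24.3%, 9.20% and 5.18% of comparison nuclei. At least 3 markers of a set were found in 2, 4 and 3 of the 90 responding nuclei. Without nuclei above 3000 UMIs, a setting chosen after seeing the data, 0 of 6, 4 of 7 and 4 of 6 tested markers had a log2 difference above 0 over all libraries. In MRL/lpr 6 weeks the distal tubule markers stood at 1195 against 1390 CPM. The part of these tubule markers in the results was not tested. Over all libraries Scrublet marked 27 of 159 responding nuclei, or 17.0%, and 9.75% of comparison nuclei.

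This share depended on the gate count. Nuclei with at least 3 endothelium markers made up 2.75% of nuclei with 0 gate UMIs, 14.3% of those with 1, 25.4% of those with 2, 10.3% of those with 3 to 4 and 3.77% of the 53 nuclei with 5 or more. The share was thus highest at the threshold, where 17 of 67 nuclei held them, and 2 of 53 held them at 5 or more. The part of these markers in the counts above was not tested beyond the fit without such nuclei, given below.

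Immune markers were scarcer. The 16 macrophage markers summed to 36 UMIs in 20 responding nuclei, at 143, 0, 181 and 88.6 CPM against 60.7, 39.8, 79.7 and 51.9 CPM; C1qa, C1qb and C1qc are at 0 by the rule. T and NK markers had 32 UMIs in 8 nuclei, at 186, 0, 129 and 0 CPM against 79.5, 27.2, 36.6 and 43.9 CPM. B and plasma cell markers had 5 UMIs and dendritic cell markers 11.

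Genes of the endothelium were prominent among the 54. Of 13 tested markers 5 rose, Flt1, Tek, Emcn, Plvap and Adgrl4. Flt1, a receptor for vascular endothelial growth factor, stood at 274, 597, 103 and 222 CPM against 55.4, 61.2, 26.5 and 65.4 CPM. Outside every list, Gimap6, Meis2, Ptprm, Cyyr1, Igfbp3, Ifitm3, Ly6e, Plpp1 and Fbln5 rose in all 4 libraries, by 1.30 to 2.97 on the log2 scale. None of these 9 genes and 5 endothelium markers passed with at least 3 gate UMIs. Ccl21a had the highest log2 difference of the 54, 6.41, but 37 of its 38 UMIs were in 1 nucleus. Slc12a1, the cotransporter of the thick ascending limb, rose by 1.11 (edgeR adjusted p = 0.0161), but its log2 difference was 0.20 against nuclei of like depth (edgeR adjusted p = 1.0) and 0.64 without nuclei above 3000 UMIs, and the call was lost without either MRL/lpr library, without C57BL/6 10 weeks and in DESeq2. In all, 11 responding nuclei held at least 3 thick limb markers.

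Leaving out every nucleus with a UMI of a macrophage, T and NK, B and plasma, dendritic or endothelium marker kept 107 responding nuclei, with 32, 0, 66 and 9 in library order. The shares were then 1.30%, 0%, 2.65% and 0.477% and the strain ratio at least 7.15 at 6 weeks and 5.56 (2.76 to 12.7) at 10 weeks. In these nuclei 9 of 10180 genes rose (0.0884%), and 8 of the 9 had also risen with all nuclei. Among the 8, Irgm1 rose by 3.29 (SE 0.532, edgeR adjusted p = 9.1e-07), Parp14 by 3.93, Tap2 by 2.63, Cd74 by 2.07 and H2-D1 by 1.65, each larger than the value with all nuclei. C57BL/6 6 weeks gave no responding nucleus to this fit, so these values and those with all nuclei rest on unlike sets of libraries. Clec2d, the ligand of an inhibitory NK cell receptor, rose by 1.53 (edgeR adjusted p = 0.0175) here and had not passed with all nuclei (log2 difference 1.08, adjusted p = 0.0713).

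Gbp7 kept 11, 0, 14 and 3 UMIs but had too few UMIs over the sums for the filter of 50. H2-K1 had a log2 difference of 1.02 and Bst2 of 1.76, and neither passed. Meis2, Ptprm, Igfbp3 and Ifitm3 had log2 differences of 0.46, -1.09, -0.13 and -0.98 without these nuclei, with adjusted p from 0.997 to 0.998 in edgeR. In summed level, Irgm1 went from 136 CPM over all responding nuclei to 191 CPM, Parp14 from 111 to 150 and Tap2 from 115 to 175 CPM. Cd74 went from 775 to 740, H2-D1 from 409 to 316 and Meis2 from 268 to 66.5 CPM.

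**Figure D5:**
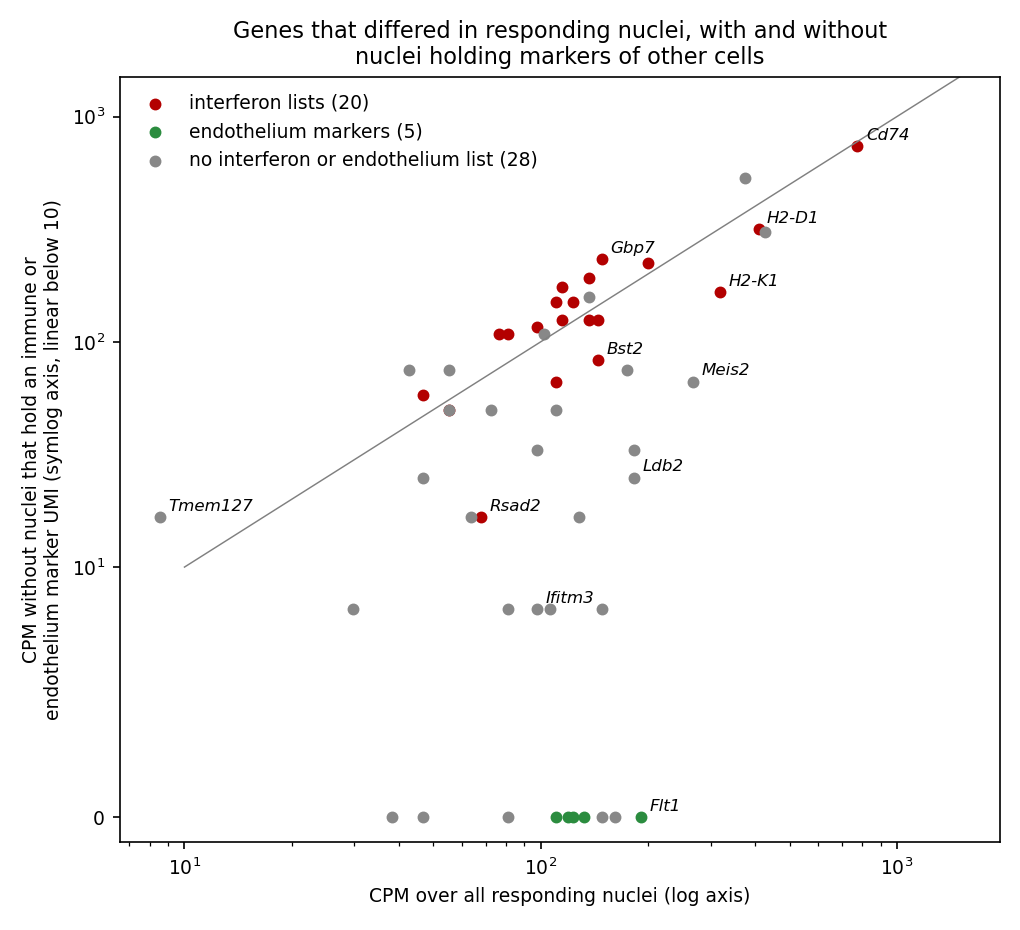
For 53 genes that differed, CPM over all responding nuclei (log axis) is plotted against CPM without nuclei that hold an immune or endothelium marker UMI (axis linear below 10 and log above); the line marks equal values. Gbp7 lies above it at 149 and 233 CPM and H2-K1 below it at 319 and 166, while the endothelium markers are at 0 by construction and Meis2 and Ldb2 lie below it.

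Against comparison nuclei of like depth (the 5 nearest in total UMIs for each responding nucleus), 22 genes rose, 20 of them among the 54 and 13 of them in the interferon lists. Irgm1, Cd74, H2-D1 and H2-K1 were among them.

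Slc34a1, the phosphate cotransporter, was detected in 94.3%, 100%, 97.8% and 100% of responding nuclei and in 98.1% to 99.5% of comparison nuclei, which the rule fixed in large part and which is no check of the label. Of 30 tested transport genes 0 rose and 0 fell in the 4 libraries together. Their median log2 difference was -0.45 beside -0.19 for all genes. Of the 30, 1 was above 0, against 4098 of all 11496 genes. With library size alone the median was -0.14 and 10 of 30 were above 0, against 0.01 and 5817 of 11496 for all genes. Fatty acid oxidation genes, 36 tested, and nuclear genes of the respiratory chain, 45 tested, also had 0 in either direction. Their medians were -0.33 and -0.33 in the main fit, with 7 and 6 genes above 0. Ribosomal protein genes, 40 tested, had a median of -0.35 with 2 above 0. A median below that of all genes was thus not particular to transport genes.

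The single gene that fell over the 4 libraries was Tmem127, a membrane protein that limits mTOR signalling, with 0, 0, 2 and 0 UMIs in responding nuclei against 188, 126, 158 and 93, a log2 difference of -2.98 (SE 0.8, edgeR adjusted p = 0.0396), a call lost on leaving out any 1 of the 4 libraries. When the MRL/lpr libraries were fitted alone, 58 of 10250 genes rose (0.566%) and 9 fell (0.0878%). Of the fixed lists, 1 of 30 transport genes, 1 of 34 fatty acid oxidation genes and 0 of 45 respiratory chain genes were among the 9. The genes named here were chosen after their values were seen. Slc13a3, which takes up dicarboxylates, stood at 208 and 241 CPM in responding nuclei of MRL/lpr 6 and 10 weeks against 498 and 520 CPM, and fell by 1.23 on the log2 scale (SE 0.222, edgeR adjusted p = 1.53e-05). Pck1, a gluconeogenic enzyme, stood at 384 and 430 CPM against 682 and 662 CPM (edgeR adjusted p = 0.00721), and Cyp4b1 at 143 and 241 against 429 and 413 CPM (edgeR adjusted p = 0.000226). In all 4 libraries Slc13a3 missed the threshold (log2 difference -1.26, edgeR adjusted p = 0.0541), as it did without nuclei holding other markers (-1.29, adjusted p = 0.114). With library size alone it passed (edgeR adjusted p = 0.000408), as it did with at least 10 UMIs, without C57BL/6 6 weeks, and without other markers at library size alone.

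Whether the difference between responding and comparison nuclei itself differed between strains was tested as an interaction in edgeR: of 11496 genes 0 passed, and 412 had an unadjusted p under 0.05. The 16 responding nuclei of C57BL/6 limit this comparison, and 3 of them make up 1 library.

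The same threshold of 2 gate UMIs was applied to other nuclei with at least 3 markers of their type and at most 1 of the 4 proximal tubule genes. Endothelium gave 5.06%, 0.916%, 5.14% and 1.61% in library order, from 20 of 395, 13 of 1419, 29 of 564 and 15 of 934 nuclei, at median depths of 294 to 386 UMIs. Thick limb nuclei gave 0.181%, 0 of 592, 0.358% and 0 of 667, at 428 to 502 UMIs, and distal tubule nuclei 0.870%, 0.0941%, 1.02% and 0.219%. Principal cells gave 1.40%, 0 of 371, 0.893% and 0.179%, podocytes 0.840%, 0.513%, 1.24% and 0 of 250, and intercalated cells 0.727%, 0.323%, 0.837% and 0 of 338. Fibroblast and mural nuclei gave 3 of 42 and 2 of 62 in MRL/lpr 6 and 10 weeks, and macrophage nuclei 2 of 49 and 6 of 111. These types were shallower than the proximal tubule. After thinning to 500 UMIs, where the proximal tubule gave 0.746% and 1.81% in MRL/lpr 6 and 10 weeks, the thick limb gave 0 of 268 and 0 of 140, the distal tubule 1 of 506 and 3 of 317, principal cells 2 of 176 and 1 of 90, and endothelium 4 of 119 and 5 of 96. No test between cell types was run, and most of these counts are too small to order them.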

How the data were processed

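The authors deposited UMI counts for each gene and each called barcode of 4 libraries. The file headers name Cell Ranger 5.0.0, whereas the submitters' processing notes name 3.1.0. Neither genome build nor intron counting is given in the sources used here. The members and gene lists were chosen with earlier results of these data known. Library pairs shared 112 to 143 barcode sequences, of which 0 to 2 belonged to a responding nucleus. Doublets were marked with Scrublet in scanpy 1.11.5 at 0.8% per 1000 barcodes (by its automatic threshold, or in MRL/lpr 6 weeks by the top scores at that rate) and were kept in the main comparison; no correction for free RNA was made.

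Counts were summed over responding and over comparison nuclei of each library and tested with edgeR 4.0.16 (R 4.3.3; quasi-likelihood, TMM, library as a block, at least 50 UMIs over the 8 sums, Benjamini-Hochberg adjusted p under 0.05); DESeq2 1.42.0 was an alternative, and the edgeR script was tested on simulated data. Both sums of a library come from the same nuclei suspension, which is where the pairing comes from, and p-values measure the spread between 4 libraries of different strain and age. The genes named are members of the interferon lists, called members and the most abundant members of other lists, and otherwise the 12 genes with the smallest p in either direction that moved alike in all 4 libraries, without predicted genes. Ccl21a, Kcnq1, Rbms3, Ldb2 and Clec2d fall outside this rule and were named after their values were seen. Shares have exact Clopper-Pearson intervals and ratios conditional exact binomial intervals at 95%; a count of 0 was set at 3 counts. Genes counted among those that differed but not named are not reported here.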

Additional observations from a re-analysis of the deposited data

How the results depend on the processing

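The number of genes higher in responding nuclei, 54, was 111 with library size alone, 21 without the replicate block, 22 with depth-matched nuclei, 24 with at least 3 gate UMIs, 26 without marked doublets, 28 in DESeq2, 9 without nuclei holding other markers, and, in settings chosen after seeing the data, 31 without nuclei above 3000 UMIs and 18 without other markers at library size alone. Leaving out 1 library gave 13 (without MRL/lpr 10 weeks) to 48, with 19 without MRL/lpr 6 weeks. The number lower, 1, was 5 with library size alone, 2 with at least 10 UMIs, 9 in MRL/lpr alone, and 0 with at least 200 UMIs, without the block, with depth matching, with at least 3 gate UMIs, without other markers, without nuclei above 3000 UMIs and in DESeq2; leaving out 1 library gave 0 to 5. Members of the 6 interferon lists higher, 21, were 39 with at least 10 UMIs, 12 with at least 200 UMIs, 13 with depth matching, 6 without other markers (11 with library size alone) and 6 to 22 on leaving out 1 library, with 6 without MRL/lpr 10 weeks and 10 without MRL/lpr 6 weeks. Some of these settings hold fewer nuclei and others the same nuclei, and the cause of these shifts was not tested.

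Shares moved to 0.746% and 1.05% in MRL/lpr 6 weeks when thinned and with at least 3 gate UMIs, to 1.81% and 1.78% in MRL/lpr 10 weeks (1.97% with at least 2 different genes), and to 0.168% and 0.164% in C57BL/6 10 weeks. In C57BL/6 6 weeks the share was 0 when thinned, with at least 3 gate UMIs, with at least 2 different genes, and without marked doublets, other markers or endothelium markers (the last chosen after seeing the data). The strain ratio at 10 weeks was 10.8 when thinned and with at least 3 gate UMIs. With at least 2 different genes the age ratio in MRL/lpr was 1.48 (0.981 to 2.24). The 5 left-out gate genes kept their direction and call with library size alone, and the count of 0 for the strain interaction held with library size alone and with at least 200 UMIs.

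Without other markers the log2 difference changed sign for Ifitm3 (-0.98; -0.81 with library size alone), Rbms3 (-1.57; -1.35), Plpp1 (-6.74; -6.72), Ptprm (-1.09; -0.88) and Igfbp3 (-0.13). With at least 3 gate UMIs it did so for Ifitm3 (-0.37) and Igfbp3 (-1.51). Without MRL/lpr 10 weeks it did so for Kcnq1 and H2-Aa, which ranged over the left-out libraries from -0.12 to 2.28 and from -0.0044 to 2.41. Cd74 lost its call without either MRL/lpr library (adjusted p = 0.991 and 0.748 in edgeR) and without the block (0.0612). Irgm1 passed in each setting in which it was tested, and it was not tested with at least 200 UMIs. Parp14 had no call with at least 200 UMIs or with depth matching and passed in the other settings. Gbp7 passed where it was tested, but it reached the filter only through responding nuclei. It was not tested with depth matching, with at least 200 UMIs or without other markers. The 5021 UMIs of C57BL/6 6 weeks limit every value from that library.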
